A study of Mus musculus with 26 samples.

Results

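The genes described here are T (brachyury, also called Tbxt), Eomes, Mixl1, Mesp1 and Gsc, 5 transcription factor genes of the mesendoderm, the cells of the primitive streak that give rise to mesoderm and definitive endoderm. Open chromatin around them was read from 26 lists of ATAC-seq peaks of mouse pluripotent cells. A peak belonged to a gene when it overlapped the gene's GRCm38 span or the 50 kb on either side, and overlapping peaks of all lists were merged into regions. The 5 windows held 225 of the 451563 listed peaks, and these formed 47 of 75600 regions. The genes were 5 of the 21896 protein-coding genes in the annotation.

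ATAC-seq uses the Tn5 transposase, which cuts accessible DNA and leaves sequencing adapters there; 50000 cells were used per library. The first set held 18 libraries, 3 for each of 6 groups. FS1 (passage 21) and FS2 (passage 29) were formative stem (FS) cells grown in A3XR. EpiSC_AF (passage 22) were epiblast stem cells in AF, EpiSC_AFX1 (passage 14) and EpiSC_AFX2 (passage 16) were epiblast stem cells in AFX, and ES (passage 16) were embryonic stem cells in 2iL. A second set is called Rd2 here after its source labels, which are Rd2GFP for the ES cells, Rd2EpiLC and Rd2AFX. It held 2 libraries of ES cells in 2iL (passage 33) and 2 of epiblast stem cells in AFX (passage 16). The other 4 were epiblast-like cells (EpiLC) made from ES cells over 2 days in AF with KSR and sorted as the GFP-low fraction. EpiSC_AF had 1 source label, whereas FS and EpiSC_AFX had 2 each. The labels give no strain or sex for any group and do not say whether libraries of a group came from separate cultures, so the p-values measure the spread between libraries, which may be technical.

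The primitive streak forms where Nodal, Wnt and BMP signals meet in the posterior epiblast, and T and Eomes, both T-box factors, are among the first genes switched on there. Naive ES cells stand for the epiblast before implantation, formative cells for the epiblast soon after it, and epiblast stem cells for the primed epiblast shortly before gastrulation, when low streak gene expression is known in culture. Activin, which signals through the same receptors as Nodal, and FGF are the usual growth factors of epiblast stem cell culture, and an inhibitor of Wnt signalling is often added to hold back streak differentiation. The labels do not spell out what the letters of AF, AFX and A3XR stand for.

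The promoter sequences are shown because the peaks of T and Gsc at the start fell on or beside them and because the 4 differ in base composition. Each runs 5′ to 3′ on the gene's own strand from 250 bases before to 50 bases after the annotated start, from RefSeq on GRCm38.p6. Capitals mark exact matches to the motifs searched.
T (chr17:8434173-8434472, plus strand): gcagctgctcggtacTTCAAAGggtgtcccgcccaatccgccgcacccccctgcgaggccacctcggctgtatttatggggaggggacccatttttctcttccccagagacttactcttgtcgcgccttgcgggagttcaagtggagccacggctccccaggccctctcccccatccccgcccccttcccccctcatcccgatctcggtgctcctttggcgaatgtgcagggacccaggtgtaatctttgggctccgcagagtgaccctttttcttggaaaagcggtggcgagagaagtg
Eomes (chr9:118477939-118478238, plus strand): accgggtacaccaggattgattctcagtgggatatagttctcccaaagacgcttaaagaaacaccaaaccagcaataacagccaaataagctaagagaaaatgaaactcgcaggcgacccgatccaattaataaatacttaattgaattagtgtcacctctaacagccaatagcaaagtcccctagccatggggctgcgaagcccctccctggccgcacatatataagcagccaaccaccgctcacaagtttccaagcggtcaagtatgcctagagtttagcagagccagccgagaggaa
Mesp1 (chr7:79793541-79793840, minus strand): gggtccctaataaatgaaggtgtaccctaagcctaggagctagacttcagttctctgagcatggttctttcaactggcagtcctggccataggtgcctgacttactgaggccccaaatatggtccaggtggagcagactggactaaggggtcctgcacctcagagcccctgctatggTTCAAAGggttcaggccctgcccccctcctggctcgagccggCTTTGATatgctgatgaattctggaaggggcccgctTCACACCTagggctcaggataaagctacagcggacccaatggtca
Gsc (chr12:104473187-104473486, minus strand): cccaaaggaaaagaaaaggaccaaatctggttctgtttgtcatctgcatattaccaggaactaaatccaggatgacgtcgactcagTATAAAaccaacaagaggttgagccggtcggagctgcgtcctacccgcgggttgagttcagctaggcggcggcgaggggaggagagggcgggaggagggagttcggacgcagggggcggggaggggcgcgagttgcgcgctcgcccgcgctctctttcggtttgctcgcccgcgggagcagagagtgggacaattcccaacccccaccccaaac

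T and Gsc had GC-rich promoters, at 61.7% and 60.3% G or C with 17 and 25 CpG dinucleotides, and Eomes had 47.3% with 10. Mesp1 lay between them with 55.3% and only 4 CpG dinucleotides. The medians over 32851 promoters of 300 bases were 52.7% and 7. All 300 bases of the Gsc sequence lay inside the peak region at its start, against 133 of Eomes, 105 of T and 34 of Mesp1. Mixl1 had no sequence in the promoter table.

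The motifs were searched on both strands as exact letters: the T-box sequence TCACACCT and its core TCACAC, the FOXH1 sequence TGTGGATT, the SMAD sequence CAGACA, the TCF/LEF sequences CTTTGAA and CTTTGAT, the octamer ATTTGCAT and the TATA box TATAAA. The core lies within the T-box sequence, so both match at the same place. Mesp1 held the T-box sequence 6 bases after its start, which 1.27% of all promoters hold, and 1 match to each TCF/LEF sequence, at 73 and 31 bases before the start. T held CTTTGAA, read on the opposite strand, 235 bases before its start, inside its peak region. The TCF/LEF sequences occur in 5.13% and 3.73% of promoters. Gsc held the TATA box letters 164 bases before its start, which 13.6% of promoters hold, and Eomes held none of the motifs. A match is a run of letters and not a measured binding site.

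Per library, the lists held 8044 to 10961 peaks in ES, 23883 to 31263 in FS1, 11796 to 14147 in FS2, 15505 to 24824 in EpiSC_AF, 17701 to 27485 in EpiSC_AFX1 and 25641 to 29575 in EpiSC_AFX2. The Rd2 lists held 471 and 2576 peaks in ES, 7469 to 26045 in EpiLC and 10719 to 11252 in AFX. A longer list holds more peaks anywhere, so the first set was also compared at equal list length, with the 8044 peaks of highest −log10 p kept from each list. The read depth is unknown, because peak lists carry no counts, and no counting interval can be given. At equal length, peaks lay within the gene or 20 kb of it for 0 to 1 of 6 formative or primed marker genes in each ES library, 3 to 4 in EpiSC_AF, 3 to 4 in EpiSC_AFX1 and 3 in EpiSC_AFX2. FS1 had 3 and FS2 had 0 to 2 of the 6. At that length 24.5% to 25.7% of all gene starts had a peak in FS2 and 27.4% to 27.8% in FS1. FS2 thus carried fewer of these marks, and fewer start peaks over all genes, than FS1. The share of all genes with a peak within 20 kb was not counted, so the marker counts here have no background beside them. Of 7 naive markers, ES had 3 to 4 and the other first-set groups 1 to 3. With lists as deposited EpiSC_AF and EpiSC_AFX1 had 4 to 5, EpiSC_AFX2 and FS1 had 4, FS2 had 1 to 3 and ES had 3 to 4, so ES was not the highest there. At equal length FS1 had 0 to 1 of 4 endoderm markers and the other first-set groups had 0, and all 3 trophoblast markers were at 0 in the first set. In the lists as deposited EpiSC_AF had 2 of the 4 endoderm markers, EpiSC_AFX1 1 to 3, EpiSC_AFX2 2, FS1 1 to 2, and FS2 and ES 0. FS2 then had 0 to 1 of the 3 trophoblast markers and the other first-set groups had 0. Of 3 neural markers FS1 and both EpiSC_AFX groups then had 2 to 3, EpiSC_AF 1 to 2, and FS2 and ES 0 to 1, against at most 1 in any first-set library at equal length. The part of such cells in the results below was not tested.

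Most of the 47 regions were sparse. In 17 of them only 1 library had a peak, and 5 were listed in 13 or more of the 26 libraries. Of those 5, the Eomes start and a region just past the Eomes span belong to a member gene. The others lay at an end of Acbd3, at ends of Pex11a and Wdr93, and inside Wdr93, which are neighbours of Mixl1 and Mesp1. Regions at an end of another gene numbered 7, the T start included, and held 62 of the 225 peaks. Region length ran from 150 to 2069 bp with a median of 342 bp.

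**Figure D1:**
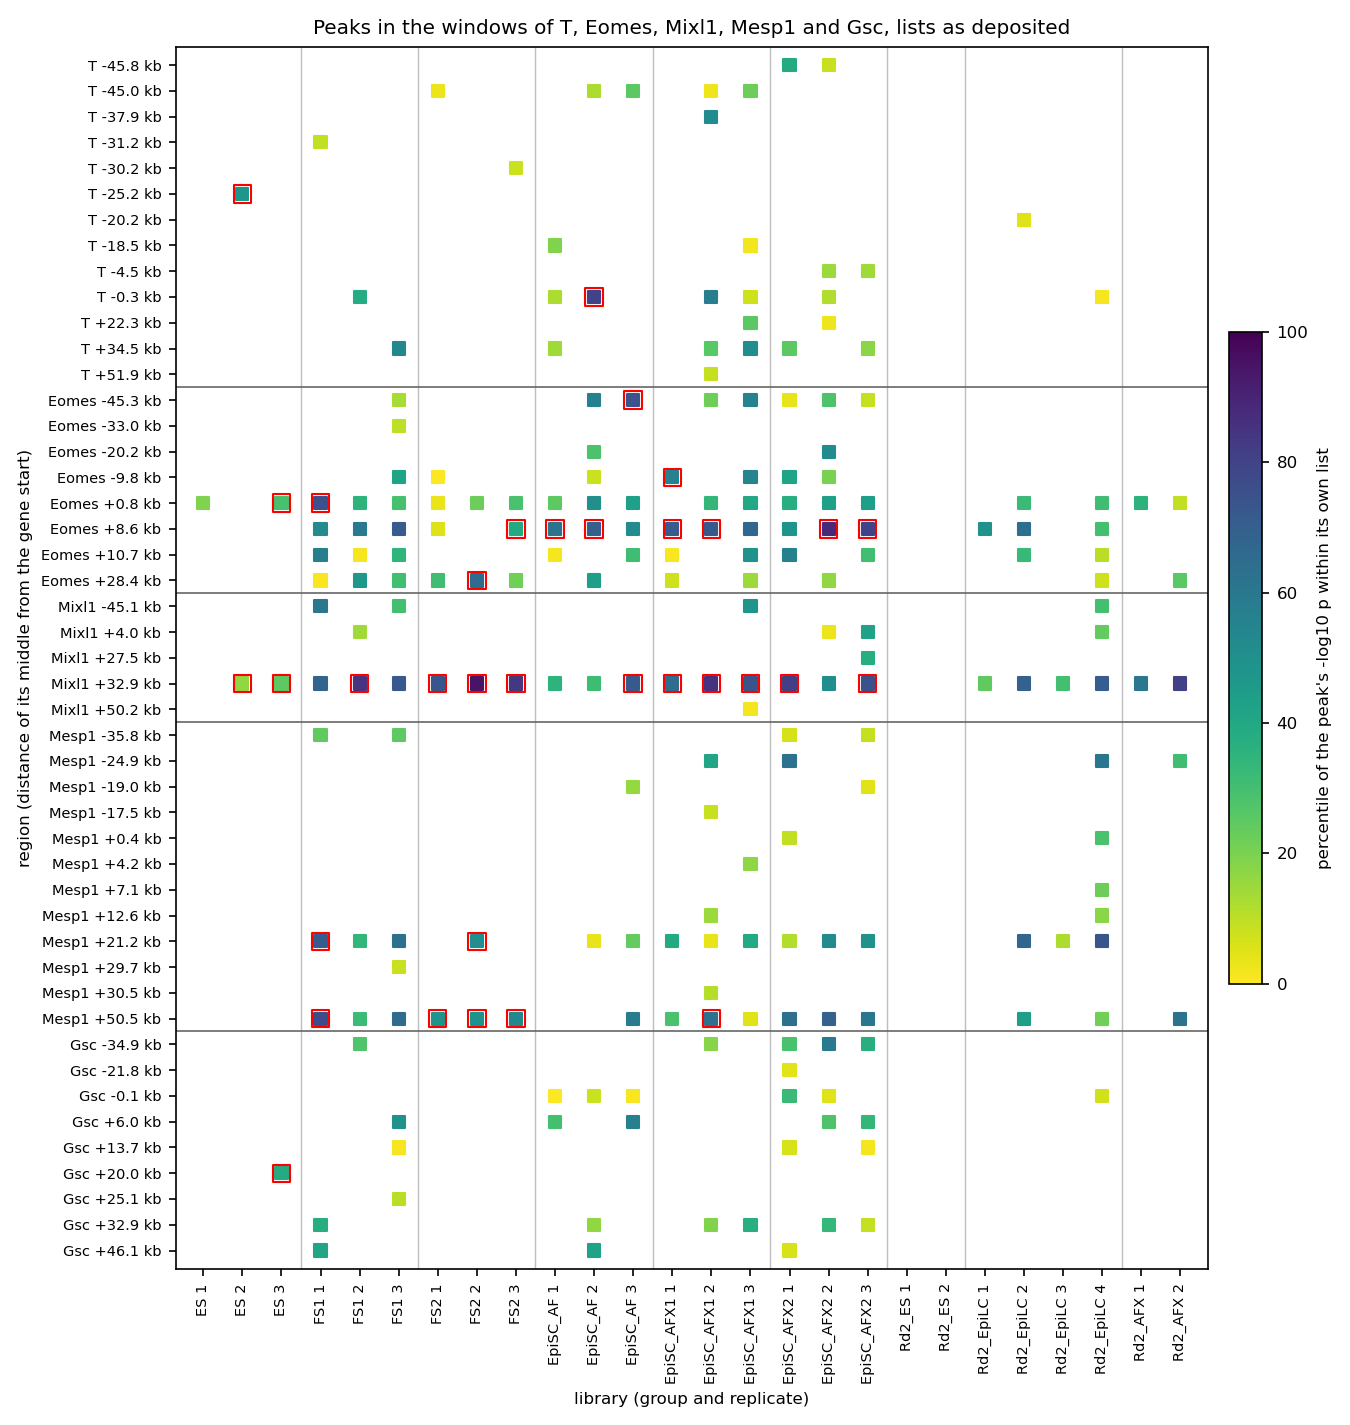
Each row is 1 of the 47 regions, labelled by its distance in kb from the gene start, and each column is 1 of the 26 libraries; a square marks a peak, its colour gives the percentile of the peak's −log10 p within its own list, and a red frame marks a peak among the 8044 strongest of a first-set list. Filled rows are few, 11 regions carry a red frame, and both Rd2_ES columns are empty.

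The number of peaks over all 5 windows was, in the first set, lowest in ES and highest in EpiSC_AFX1 replicate 3. Lists as deposited gave 9, 13 and 11 peaks in the EpiSC_AF libraries, 7, 17 and 19 in EpiSC_AFX1, and 18, 18 and 17 in EpiSC_AFX2. FS1 had 12, 10 and 17, FS2 had 7, 5 and 6, and ES had 1, 2 and 3. Per 10000 peaks of the list this was 5.42 ± 0.866 (SD, n = 3) in EpiSC_AF, 6.41 ± 1.35 (n = 6) in EpiSC_AFX, 4.66 ± 0.470 (n = 6) in FS and 2.16 ± 1.12 (n = 3) in ES. The EpiSC_AF range, 4.43 to 6.03, overlapped those of EpiSC_AFX and FS, and every ES library was below every library of the other 3 types. How often other genes show this order was not counted. At equal length the totals were 1, 2 and 2 in EpiSC_AF, 3, 3 and 1 in EpiSC_AFX1, 1, 1 and 2 in EpiSC_AFX2, 3, 1 and 0 in FS1, 2, 4 and 3 in FS2, and 0, 2 and 3 in ES. These ranges all overlapped, ES included.

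At equal length 11 of the 47 regions had a peak in any first-set library and 36 had none. Among the 36 were the regions at -20.2 kb from T and 7.13 kb from Mesp1, which were listed in Rd2 libraries only. Gsc kept 1 peak in the 18 libraries and T kept 2. Over all protein-coding genes the mean at equal length was 1.08 peaks per window in EpiSC_AF, 1.096 in EpiSC_AFX, 1.09 in FS and 0.868 in ES, and 22.5% to 28.1% of gene starts had a peak. The Mixl1 window had a peak in 12 libraries at equal length, all of them at the end of Acbd3.

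Every region with an EpiSC_AF peak also had an EpiSC_AFX peak, where EpiSC_AFX had 6 libraries against 3 and mostly longer lists. The counts of this paragraph were not made over all regions, so they have no background share beside them. EpiSC_AF had a peak in 19 of the 47 regions in its 3 libraries. EpiSC_AFX had one in 38 in its 6 libraries, of which 19 had no EpiSC_AF peak. FS had one in 25, of which 10 had none in EpiSC_AF, and 4 of the 19 EpiSC_AF regions had no FS peak. FS1 had 23 regions and FS2 had 9. ES had a peak in 4 regions, at the Eomes start, at the end of Acbd3, at -25.2 kb from T and at 19.96 kb from Gsc.

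**Figure D2:**
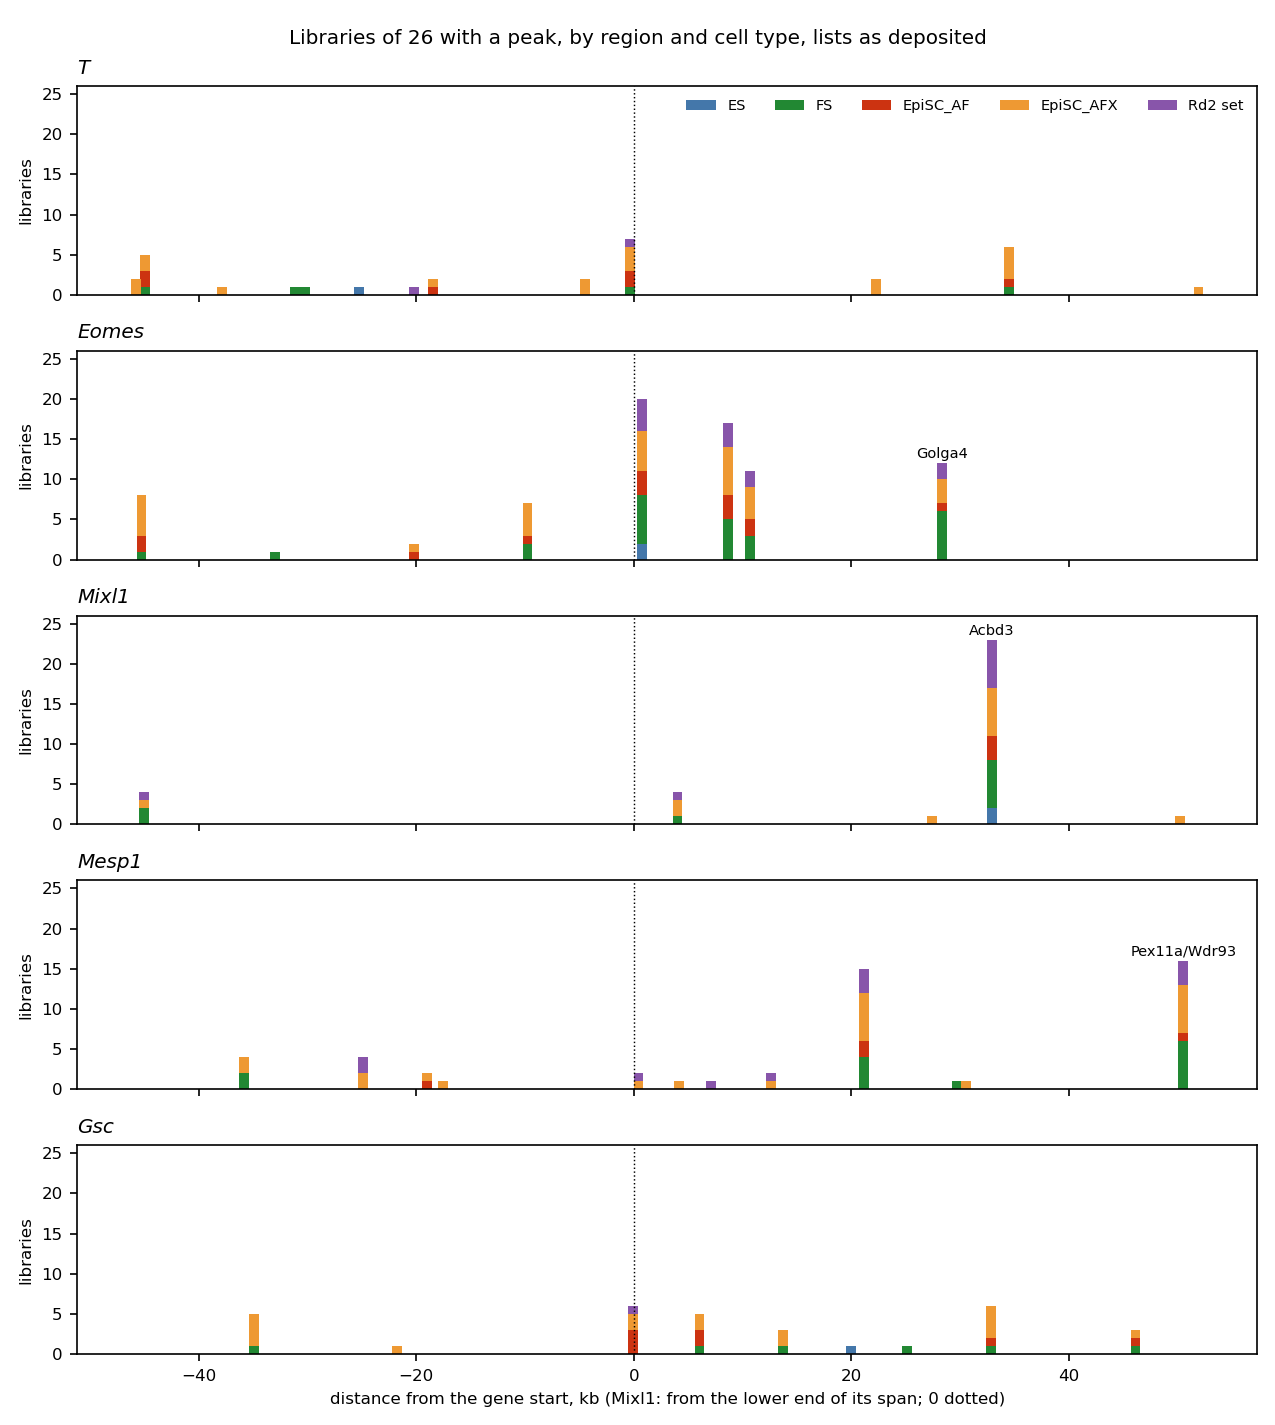
For each gene, the number of the 26 libraries with a peak in each region is plotted against the region's distance in kb from the gene start, stacked by cell type, with lists as deposited. The Eomes start (20 libraries) and the region 8.6 kb from it (17) are the tallest of the member genes' own, and the tallest bars of the Mixl1 and Mesp1 windows lie at neighbouring genes, Acbd3 (23) and Pex11a with Wdr93 (16).

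Eomes encodes the T-box factor that acts upstream of definitive endoderm and of cardiac mesoderm, and its window held the most peaks, 79 in 8 regions. The gene (gene ID 13813) spans chr9:118478186-118486132 on the plus strand. EpiSC_AF had 3, 6 and 4 peaks in the window, EpiSC_AFX1 had 4, 3 and 7, EpiSC_AFX2 had 5, 6 and 4, FS1 had 4, 4 and 7, FS2 had 4, 2 and 3, and ES had 1, 0 and 1. With lists as deposited the ES libraries lay below all others of the first set, and the other groups overlapped. The share of all genes with this order was not counted. Over all genes the mean per window was also lowest in ES within the first set, at 1.015 against 1.685 to 3.12. At equal length the ES libraries had 0, 0 and 1 Eomes peaks and overlapped the other groups.

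The Eomes start, chr9:118478106-118479807, had a peak in 20 of 26 libraries. These were all of FS1, FS2, EpiSC_AF and EpiSC_AFX2, 2 of 3 each in EpiSC_AFX1 and ES, 2 of 4 EpiLC and both Rd2_AFX libraries. The percentile of a peak is the percent of its own list with a lower −log10 p. It was 24.7, 50.1 and 43.7 in EpiSC_AF. In FS1 it was 75.6, 35.4 and 29.2, and in FS2 3.45, 22.3 and 28.8. The start was thus listed in nearly every group, mostly below the middle of the list. At equal length 2 libraries kept it, FS1 replicate 1 and ES replicate 3.

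The region with the highest mean percentile among those that touched no end of a neighbour lay just past the end of the Eomes span, at chr9:118486463-118487190, 8.6 kb from the start. Peaks were listed in 3 of 3 EpiSC_AF, 6 of 6 EpiSC_AFX, 5 of 6 FS and 3 of 4 EpiLC libraries, and in 0 of 3 ES, 0 of 2 Rd2_ES and 0 of 2 Rd2_AFX libraries. The percentiles were 62.0, 70.2 and 52.6 in EpiSC_AF, 71.5, 72.0 and 67.0 in EpiSC_AFX1, and 48.0, 88.4 and 80.4 in EpiSC_AFX2. FS1 had 52.6, 59.2 and 71.5, and FS2 had 5.41 in replicate 1 and 39.4 in replicate 3. Lists differ in length, so a percentile does not stand for the same rank in each. The FS1 peaks ranked 12525, 9749 and 8908 in their lists, and that of FS2 replicate 3 ranked 7856. At equal length 2 of 3 EpiSC_AF, 4 of 6 EpiSC_AFX, 1 of 6 FS (FS2 replicate 3) and 0 of 3 ES libraries kept the region. The difference between EpiSC_AF and FS had an exact Fisher p of 0.226 (two-sided, adjusted 1).

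Further out, the region at -45.3 kb had a peak in 8 first-set libraries, EpiSC_AF replicates 2 and 3, 5 of 6 EpiSC_AFX and FS1 replicate 3. Its EpiSC_AF percentiles were 56.4 and 74.6, and replicate 3 kept it at equal length. The region at 28.4 kb, at an end of Golga4, a gene of a Golgi tethering protein, was named after its values were seen. It had a peak in 6 of 6 FS, 1 of 3 EpiSC_AF (replicate 2) and 3 of 6 EpiSC_AFX libraries.

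T encodes brachyury, the T-box factor of nascent mesoderm and notochord, and its window held 32 peaks in 13 regions. The gene (gene ID 20997) spans chr17:8434423-8442496 on the plus strand. EpiSC_AF had 3, 2 and 1 peaks, EpiSC_AFX1 had 0, 5 and 5, EpiSC_AFX2 had 2, 4 and 2, FS1 had 1, 1 and 1, FS2 had 1, 0 and 1, and ES had 0, 1 and 0. Every EpiSC_AF library was at or above every FS library, with a tie at 1, and the range of EpiSC_AFX took in that of EpiSC_AF. No T region had a peak in as many as 13 libraries, and 6 had one in a single library. The regions from -45.8 to -18.5 kb all lay inside the span of T2, the neighbouring gene.

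The T start region, chr17:8433936-8434277, ended before the annotated start and also lies in the span of the gene model LOC115486424. It had a peak in 7 libraries, EpiSC_AF replicates 1 and 2, EpiSC_AFX1 replicates 2 and 3, EpiSC_AFX2 replicate 2, FS1 replicate 2 and EpiLC replicate 4. The percentiles were 12.1 and 80.3 in EpiSC_AF, 58.1 and 7.58 in EpiSC_AFX1, 11.7 in EpiSC_AFX2, 38.7 in FS1 and 1.44 in EpiLC. EpiSC_AF replicate 2 alone kept it at equal length. ES and FS2 had none. The region at 34.5 kb, chr17:8468761-8469039, had a peak in 6 libraries, 4 of 6 EpiSC_AFX, EpiSC_AF replicate 1 and FS1 replicate 3, at percentiles of 14.1 to 53.2.

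Gsc encodes goosecoid, the homeobox factor of the anterior streak and organizer, and no other annotated protein-coding gene lies in its window. The gene (gene ID 14836) spans chr12:104471209-104473236 on the minus strand, and the window held 31 peaks in 9 regions. EpiSC_AF had 2, 3 and 2 peaks, EpiSC_AFX1 had 0, 2 and 1, EpiSC_AFX2 had 5, 4 and 4, FS1 had 2, 1 and 3, FS2 had 0, 0 and 0, and ES had 0, 0 and 1. With lists as deposited the EpiSC_AFX2 libraries were above those of EpiSC_AFX1 and EpiSC_AF, and all FS2 libraries were at 0. Over all genes the mean was 3.065 peaks per window in EpiSC_AFX2, 2.73 in EpiSC_AFX1, 2.45 in EpiSC_AF and 1.685 in FS2. The share of all genes with such a gap was not counted. At equal length all libraries of these groups had 0 Gsc peaks.

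The Gsc start region, chr12:104472888-104473714, had a peak in all 3 EpiSC_AF libraries and in none of the 6 FS libraries. EpiSC_AFX2 replicates 1 and 2 and EpiLC replicate 4 also had one, while EpiSC_AFX1, ES and Rd2_AFX had none. These were weak peaks, at percentiles of 0.503, 8.09 and 1.14 in EpiSC_AF, 32.4 and 4.84 in EpiSC_AFX2, and 7.36 in EpiLC. No library kept the region at equal length. The region at 32.9 kb, chr12:104440120-104440633, had a peak in 6 libraries, 4 of 6 EpiSC_AFX, EpiSC_AF replicate 2 and FS1 replicate 1, at percentiles of 8.75 to 37.6. The region at -34.9 kb, named after its values were seen, had one in all 3 EpiSC_AFX2 libraries, EpiSC_AFX1 replicate 2 and FS1 replicate 2, and in 0 of 3 EpiSC_AF.

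Mixl1 encodes a paired-type homeobox factor of the streak that acts in endoderm and mesoderm patterning. The gene (gene ID 27217) spans chr1:180693043-180697034, and its strand was not in the tables used here, so distances are from the lower end of the span. The window held 33 peaks in 5 regions, but 23 of them were 1 region at an end of Acbd3, a gene of a Golgi protein, at chr1:180725436-180726468. That region had a peak in 23 of 26 libraries, with percentiles of 35.2, 30.9 and 71.9 in EpiSC_AF, 64.9 to 85.6 in EpiSC_AFX1, 51.0 to 81.8 in EpiSC_AFX2, 68.0 to 84.8 in FS1 and 73.4 to 94.7 in FS2. ES replicate 1 and both Rd2_ES libraries lacked it. The window totals of 1, 1 and 1 in EpiSC_AF were this region alone.

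At Mixl1 itself, the region over the upper end of the span, chr1:180696602-180697527, had a peak in 4 libraries, FS1 replicate 2, EpiSC_AFX2 replicates 2 and 3 and EpiLC replicate 4. Their percentiles were 14.1, 3.08, 42.2 and 23.9. EpiSC_AF, EpiSC_AFX1, FS2 and ES had no peak there. The region at -45.1 kb, chr1:180647851-180648098, lies inside Lin9, a gene of a cell cycle complex, and had a peak in 4 libraries, FS1 replicates 1 and 3, EpiSC_AFX1 replicate 3 and EpiLC replicate 4.

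Mesp1 encodes a basic helix-loop-helix factor of early cardiac and cranial mesoderm, and its window held 50 peaks in 12 regions, 20 of them at ends of other genes. The gene (gene ID 17292) spans chr7:79792241-79793590 on the minus strand. EpiSC_AF had 0, 1 and 3 peaks, EpiSC_AFX1 had 2, 6 and 3, EpiSC_AFX2 had 5, 2 and 4, FS1 had 3, 2 and 4, FS2 had 1, 2 and 1, and ES had 0, 0 and 0. EpiSC_AF overlapped both other types and ES was at 0. The start region itself, chr7:79792743-79793574, had a peak in 2 libraries, EpiSC_AFX2 replicate 1 at percentile 9.09 and EpiLC replicate 4 at 28.7. With a distance limit of 500 bp in place of 1 kb, 1 library remained.

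The fuller regions of the Mesp1 window lay at its neighbour Wdr93. The region 50.5 kb away, chr7:79742698-79743415, touches ends of Wdr93 and of Pex11a, a gene of a peroxisomal membrane protein. It had a peak in 6 of 6 FS and 6 of 6 EpiSC_AFX libraries and in 1 of 3 EpiSC_AF (replicate 3, percentile 58.3). The percentiles in FS2 were 48.2, 49.2 and 53.5. The region at 21.2 kb, chr7:79771989-79772811, inside the span of Wdr93, had a peak in 6 of 6 EpiSC_AFX, 3 of 3 FS1, 1 of 3 FS2, 2 of 3 EpiSC_AF and 3 of 4 EpiLC libraries. Its percentiles in EpiSC_AF were 3.57 and 23.9, and in FS1 71.1, 34.4 and 62.5. Mesp2, the paralogue next to Mesp1 that acts in somite formation, shares part of the window, and its own window had 1, 2 and 3 peaks in EpiSC_AF, 2, 6 and 3 in EpiSC_AFX1, 5, 2 and 3 in EpiSC_AFX2 and 0 to 4 in FS.

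**Figure D3:**
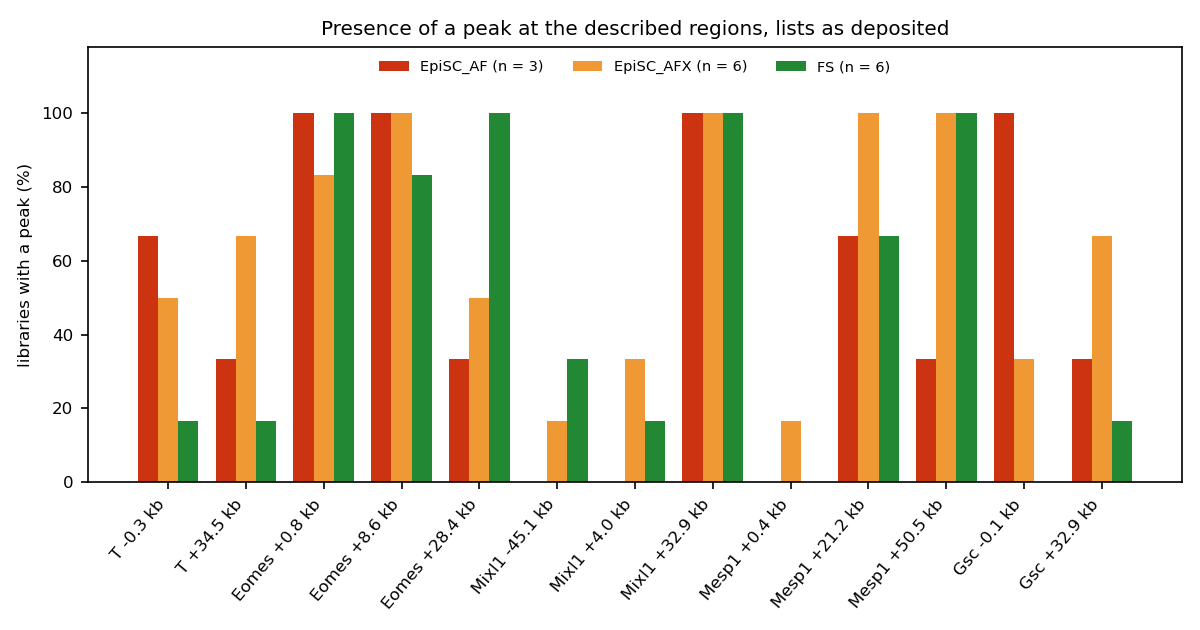
Share of EpiSC_AF (n = 3), EpiSC_AFX (n = 6) and FS (n = 6) libraries with a peak at 13 regions, lists as deposited. At the Gsc start EpiSC_AF stands at all of 3 and FS at 0 of 6, and at 50.5 kb from Mesp1 EpiSC_AF stands at 1 of 3 with the others at 6 of 6.

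Across the 5 starts, a peak within 1 kb was listed in 20 libraries for Eomes, 7 for T, 6 for Gsc, 4 for Mixl1 (at either end of its span) and 2 for Mesp1. In the order of these numbers Eomes stood apart, while T, Gsc and Mixl1 were close together. Of the starts of 17491 genes, 44.9% to 53.2% had a peak in the EpiSC_AF libraries, 48.5% to 57.1% in EpiSC_AFX1, 54.7% to 56.8% in EpiSC_AFX2, 53.9% to 57.5% in FS1, 34.4% to 40.2% in FS2 and 23.4% to 28.3% in ES. EpiSC_AF replicates 1 and 2 had 3 of the 5 starts and replicate 3 had 2. FS1 had 1, 3 and 1, each FS2 library had 1, EpiSC_AFX1 had 0, 2 and 2, and EpiSC_AFX2 had 3, 4 and 2.

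The first comparison set epiblast stem cells in AF against those in AFX. The number of peaks in each gene window was compared by an exact two-sided permutation test over libraries (3 against 6, 84 assignments, smallest p 0.0119) with Benjamini-Hochberg adjustment over all genes tested. That smallest p is too large for a single gene to pass the threshold of 0.05 after adjustment unless very many do, so the absence of calls does not show that the types are alike. No window among 16243 genes passed at equal length and none of 20016 with lists as deposited (0% called in both), with 281 and 604 genes at an unadjusted p under 0.05.

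None of the 5 windows was called in EpiSC_AF against EpiSC_AFX. At equal length the EpiSC_AF and EpiSC_AFX means were 0.333 ± 0.577 (SD, n = 3) and 0 ± 0 (n = 6) peaks for T, an exact permutation p of 0.333. For Eomes they were 1 ± 0 and 0.833 ± 0.753, with an exact p of 1. Mixl1 had 0.333 ± 0.577 and 0.833 ± 0.408, at an exact p of 0.464, and all of its peaks were the Acbd3 region. For Mesp1 the means were 0 ± 0 and 0.167 ± 0.408, at an exact p of 1, and Gsc had no peak in either. Every adjusted p was 1. No member's groups stood without overlap, where the background was 0.345% of genes higher in EpiSC_AF and 0.252% lower.

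With lists as deposited the mean was lower in EpiSC_AF for all 5 genes, as it was for 70.2% of all genes tested, whose median difference was -0.333 peaks. The differences, EpiSC_AF minus EpiSC_AFX, were -1 peak for T, -0.50 for Eomes, -0.833 for Mixl1, -2.33 for Mesp1 and -0.333 for Gsc. The lowest exact permutation p was 0.0952, for Mesp1 (adjusted 1), where the EpiSC_AF libraries had 0, 1 and 3 peaks and the EpiSC_AFX libraries 2 to 6. For T and Eomes the sign was the opposite of that at equal length. No member's groups were free of overlap here either, against 0.035% of genes higher and 1.37% lower.

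By region, presence was compared by a two-sided exact Fisher test with the same adjustment. No region was called among 15559 at equal length or 52299 with lists as deposited (0% in both), with 203 and 623 at an unadjusted p under 0.05. Of the regions in the 5 windows, 0 of 6 at equal length and 0 of 38 with lists as deposited were open in all libraries of one type and in no library of the second. Over all regions, 0.283% were present in every EpiSC_AF and no EpiSC_AFX library at equal length and 0.116% the other way, and 0.109% and 0.268% with lists as deposited. The lowest Fisher p of the 5 windows was 0.0833 (exact, adjusted 1), at the ends of Pex11a and Wdr93, which was present in 1 of 3 against 6 of 6 libraries. Replicate 3 was the 1 EpiSC_AF library with a peak there, so leaving it out separates the types by construction and adds no evidence. The Gsc start, at 3 of 3 against 2 of 6, and the region at -34.9 kb from Gsc, at 0 of 3 against 4 of 6, each had an exact Fisher p of 0.167.

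The second comparison set epiblast stem cells in AF against formative cells in A3XR, with the same EpiSC_AF libraries. No window was called among 16744 genes at equal length or 20022 with lists as deposited (0% in both), with 544 and 220 at an unadjusted p under 0.05. T had 2 ± 1 peaks (SD, n = 3) in EpiSC_AF and 0.833 ± 0.408 (n = 6) in FS with lists as deposited, the lowest exact permutation p of the 5 genes at 0.0714 (adjusted 1). Gsc had 2.33 ± 0.577 against 1 ± 1.26, with an exact p of 0.167. Eomes had 4.33 ± 1.53 against 4 ± 1.67 (exact p 0.869), Mixl1 1 ± 0 against 1.5 ± 0.548 (exact p 0.464) and Mesp1 1.33 ± 1.53 against 2.17 ± 1.17 (exact p 0.440). None of the differences exceeded the spread between libraries by this test, and no member's groups were free of overlap, against 0.315% of genes higher in EpiSC_AF and 0.295% lower.

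At equal length the T difference between EpiSC_AF and FS shrank to 0.333 peaks, from 1 library of EpiSC_AF with 1 peak and none in FS (exact permutation p 0.333). Eomes differed by 0.50 (exact p 0.464), Mixl1 by -0.333 (exact p 0.524) and Mesp1 by -1 (exact p 0.226), and Gsc had no peak. Mesp1 had 0 ± 0 peaks in EpiSC_AF (n = 3) and 1 ± 0.894 in FS (n = 6), and the FS peaks were the regions at Wdr93. All adjusted p-values were 1. Background shares without overlap were 0.836% higher and 0.705% lower, with 0 of the 4 genes that had a peak.

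The Gsc start was the 1 region of 30 in the windows that separated EpiSC_AF from FS with lists as deposited, at 3 of 3 against 0 of 6 libraries (exact Fisher p 0.0119, adjusted 1). Over all 50418 regions, 0.305% were present in every EpiSC_AF and no FS library and 0.141% the reverse, where the windows had 0. At equal length 0 of 8 regions separated the types, against 0.564% and 0.33% of 17551. No region passed the adjusted threshold (0% called in both), with 457 regions at equal length and 623 with lists as deposited at an unadjusted p under 0.05. The ends of Pex11a and Wdr93 and the end of Golga4 were each present in 1 of 3 EpiSC_AF and 6 of 6 FS libraries (exact Fisher p 0.0833, adjusted 1). The EpiSC_AF library with a peak was replicate 3 at the first and replicate 2 at the second. Leaving that library out separates the types by construction and adds no evidence.

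Other genes of the primitive streak were read from a list of 20: Fgf8, Wnt3, Wnt3a, Nodal, Tdgf1, Foxa2, Lhx1, Tbx6, Msgn1, Mesp2, Evx1, Cdx1, Cdx2, Snai1, Sp5, Hhex, Cer1, Lefty1, Lefty2 and Sox17. None passed the adjusted threshold in either comparison. A peak in the windows of more than 1 list gene counts for each of them, so the genes are not all independent in the numbers below. At equal length 11 of the 20 had a higher mean in EpiSC_AF than in EpiSC_AFX, 4 a lower and 5 an equal one, and with lists as deposited 4 were higher, 15 lower and 1 equal. Msgn1, Evx1 and Cer1 had no peak at equal length in the types compared, so 3 of the equal ones were not tested, whereas the shares over all genes count only genes with a peak. All genes were higher in 37.3% and lower in 43.2% at equal length, and higher in 19.3% with lists as deposited. Against FS, 11 were higher, 5 lower and 4 equal at equal length, where all genes were higher in 40.7% and lower in 45.5%. With lists as deposited 13 were higher, 4 lower and 3 equal, against 46.4% and 42.5% of all genes. The list's median difference was 0.25 peaks against EpiSC_AFX and 0.167 against FS at equal length, beside 0 over all genes for both. With lists as deposited it was -0.583 against EpiSC_AFX, beside -0.333 over all genes, and 0.333 against FS, beside 0, so the sign against EpiSC_AFX turned with list length.

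Of that list, 3 of the 17 genes with a peak at equal length had EpiSC_AF libraries above all those of FS: Fgf8, Nodal and Tdgf1. None lay below, and over all 16744 genes tested 0.836% lay above and 0.705% below. Nodal, the streak-inducing ligand, had 4, 4 and 4 peaks in EpiSC_AF against 2, 2 and 2 in FS1 and 2, 1 and 1 in FS2. Tdgf1, which encodes the Nodal co-receptor Cripto, had 3, 3 and 3 against 1, 1 and 2 in FS1 and 1, 1 and 1 in FS2. Fgf8, an FGF ligand needed for cells to leave the streak, had 2, 2 and 2 against 1, 1 and 1 in FS1 and 1, 0 and 1 in FS2. Each had an exact permutation p of 0.0119, the smallest the design allows, and an adjusted p of 0.902. With lists as deposited the types overlapped for all 3, and against EpiSC_AFX they overlapped in both kinds of list. Windows of the streak list were not checked for peaks at neighbouring genes, so some of these peaks may lie at other genes.

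**Figure D4:**
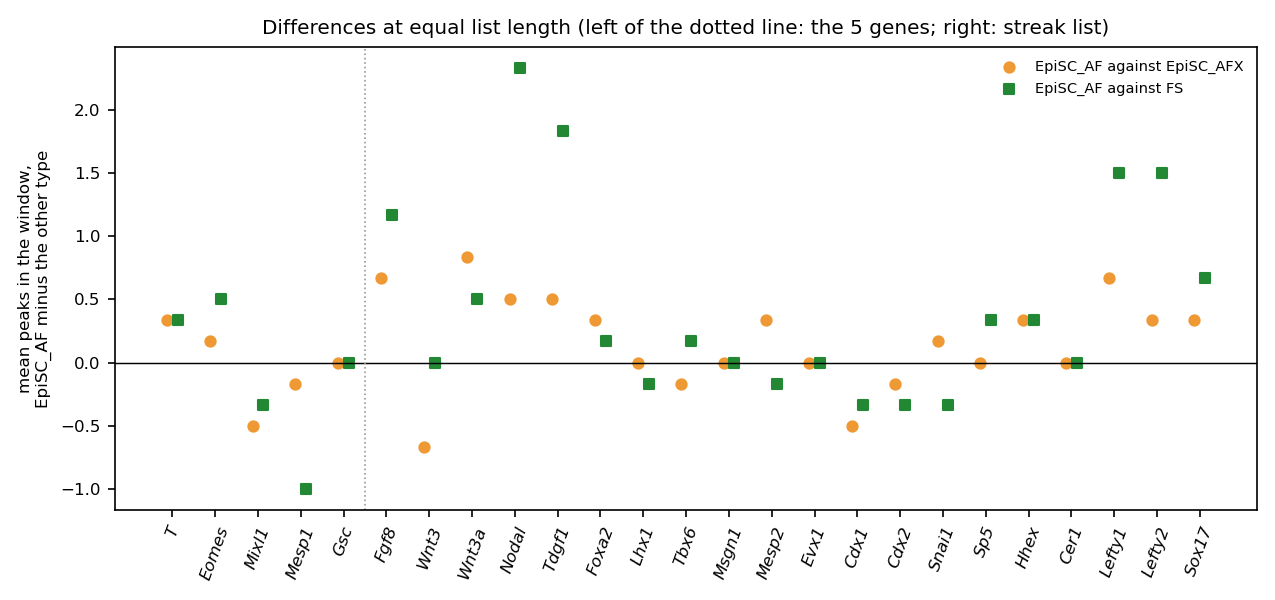
Difference in mean peaks per window at equal list length, EpiSC_AF minus EpiSC_AFX (circles) and EpiSC_AF minus FS (squares), for the 5 genes and the 20 genes of the streak list. The 5 genes lie between -1 and 0.50, and Nodal, at 2.33 against FS, is the highest point.

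In the Rd2 set, the Rd2_ES lists held no peak in any of the 5 windows, and they are the shortest lists of the series. The 4 EpiLC libraries had 2, 7, 2 and 15 peaks and the Rd2_AFX libraries 2 and 5. EpiLC replicate 4, with the longest EpiLC list, had a peak at all 5 starts, the one library of the 26 to do so. Over all genes, 27.0% to 54.1% of starts had a peak in the EpiLC libraries and 35.8% to 37.5% in Rd2_AFX. EpiLC replicates 1 and 3 had no start peak, and replicate 2 had the Eomes start. Both Rd2_AFX libraries had the Eomes start and none of the other 4. The Rd2_AFX libraries lacked the region 8.6 kb from the Eomes start that all 6 EpiSC_AFX libraries of the first set held, and their lists are shorter. No test was made, since 4 against 2 libraries cannot go below a p of 0.0667.

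Genes with window counts most like those of a member over the 18 first-set libraries at equal length are given as a description. They could be named for Eomes, with a peak in 11 libraries, and for Mixl1, with 12, because T, Mesp1 and Gsc had a peak in 2, 5 and 1. For Eomes the highest Pearson correlations were 0.702 for Gm6569 and Ndufb4c and 0.70 for BC024063. For Mixl1, whose counts at this length were all of the Acbd3 region, they were 0.877 for Phf20l1, 0.756 for Chrac1 and 0.75 for Tnxb. The points share library and list properties, and the counts are small.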

How the data were processed

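Per the labels' protocols, Tn5 of a Nextera kit was applied to the nuclei of 50000 cells per library. The submitters' processing notes name Trim Galore, Bowtie, Picard, MACS2 and the build mm10, which is GRCm38, with no versions or settings. Peaks were called per library, since each sample has its own list in the broadPeak layout. Each deposited peak carries a score, a fold enrichment (a ratio), a −log10 p and a −log10 q, all the authors' own values, used here to rank, filter or describe peaks within a list. The deposited score was not used further.

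Peaks were assigned to gene spans plus 50 kb from a GRCm38.p6 table of genes, and 1 shared bp was enough for presence. Only its protein-coding genes were used, for neighbours and gene ends as well. Starts came from the promoter table, and a start peak lay within 1 kb. Regions were merged over all 26 lists for description and over the libraries compared for tests, so their bounds differ slightly. The main tests used the 8044 peaks of highest −log10 p per first-set list; peaks of the Rd2 set were not compared with it by a test. Window counts were tested by exact permutation and presence by Fisher's exact test, with Benjamini-Hochberg adjustment and a threshold of 0.05 (Python 3.11.15, numpy 2.4.6, pandas 2.3.3, scipy 1.17.1, matplotlib 3.10.9). The test code was tested on simulated data. Libraries of a group shared at most 0.0746% of peaks with identical coordinates, and each was counted as 1 replicate.

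The members, lists and alternatives were chosen with earlier results of these data known. Named were the 5 genes, regions within 1 kb of their starts, regions that separated the types, the 2 regions of each gene in most libraries, genes of the streak list without overlap and Mesp2. Some other regions were described that this rule did not pick. Alternatives were list length, ranking, a −log10 q of at least 5, window size, overlap, single lines, left-out libraries and a replicate block.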

Additional observations from a re-analysis of the deposited data

Results flagged for a closer look

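Of 30 sets of counts, each for a gene or all 5 together in a type of 4 to 6 libraries, 6 had 1 library far from the others by Dixon's criterion, which chance gives in about 1 in 20 groups. Counts this small meet it easily when 1 library differs by a single peak. In the EpiLC group, replicate 4 had 3 peaks in the Mixl1 window where the nearest had 1, and 1 peak in the Gsc window where the others had 0. In FS, FS2 replicate 2 had 0 peaks in the T window and the 5 others had 1. At equal length, EpiSC_AFX2 replicate 2 had 0 peaks in the Mixl1 window where the others had 1, and EpiSC_AFX1 replicate 2 had 1 in the Mesp1 window where the others had 0. Over all 5 windows, EpiSC_AFX1 replicate 1 had 7 peaks where the nearest EpiSC_AFX library had 17, a gap of 0.833 of the whole range. Its list of 17701 peaks was the shortest of EpiSC_AFX.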

How the results depend on the processing

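No gene or region was called in either comparison under any alternative, with 0 called throughout. Of 100 member differences under alternatives that kept every library, 80 kept their direction or stayed at no difference, 7 fell to no difference, 6 (all Gsc) left no difference and 7 reversed. Of 90 with 1 library left out, 85 kept it, 5 fell to no difference and 0 reversed. The reversals were T (EpiSC_AF minus EpiSC_AFX, 0.333 peaks at equal length), which was -1 with lists as deposited and -0.167 with 100 kb windows, and Eomes (0.167), which was -0.50 with lists as deposited and -0.167 with 20 kb windows. The T difference from FS (0.333) was -0.167 with 100 kb windows. The cause was not tested. Without 1 library, the differences from EpiSC_AFX ranged from 0 to 0.5 for T, 0 to 0.4 for Eomes, -0.833 to -0.333 for Mixl1 and -0.2 to 0 for Mesp1, and those from FS from 0 to 0.5, 0.4 to 0.6, -0.667 to -0.167 and -1.2 to -0.8. Gsc stayed at 0. The 5 that fell to 0 were T in both comparisons without EpiSC_AF replicate 2, Eomes without EpiSC_AFX1 replicate 3 or EpiSC_AFX2 replicate 1, and Mesp1 without EpiSC_AFX1 replicate 2, the last 3 against EpiSC_AFX. Gsc differed by -0.333 from EpiSC_AFX and 1.33 from FS with lists as deposited, and by 0.333 from each with 100 kb windows. Mixl1 differed by 0 from each with 20 kb windows.

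Regions numbered 47 over all 26 lists as deposited and 11 in the first set at equal length, where fewer peaks and no Rd2 libraries enter. The Mesp1 start had a peak in 2 libraries within 1 kb and in 1 within 500 bp. Regions that separated EpiSC_AF from FS numbered 0 at equal length and 1 with lists as deposited, the Gsc start, present in EpiSC_AF. Against FS2 alone at equal length there was 1 of the opposite direction, at Pex11a and Wdr93, present in 3 of 3 FS2 and 0 of 3 EpiSC_AF libraries. There were 1 to 2 with lists as deposited and 1 library left out. Against EpiSC_AFX these were 0 to 1. The counts for FS2 alone and with a library left out have no share over all regions beside them. The smallest exact Fisher p against FS2 alone was 0.1.

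Whether replicate numbers pair the libraries was read from correlations, which are not given here as a measure of how alike the types are. Same-numbered libraries correlated at -0.0182 to 0.03 with EpiSC_AFX and -0.0315 to 0.0278 with FS. Differently numbered ones correlated at -0.0404 to 0.023 and -0.0257 to 0.0373. In each comparison 1 of 3 EpiSC_AF libraries correlated best with its own number, so the numbers gave no sign of pairing. With a replicate block 0 genes and 0 regions were called. With the replicate block on lists as deposited, T and Eomes differed from EpiSC_AFX by -1 and -0.50. The blocked runs on lists as deposited and those with a library left out were chosen after seeing the data. Motif counts in the peak regions were not run, since they need a genome sequence.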
